A study of Mus musculus with 8 samples.

Results

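Early germ cell and meiotic genes were followed by RNA-seq in 8 granulosa cell libraries. Granulosa cells are the somatic cells around the oocyte, and these came from C57BL/6 ovaries at postnatal day 4 (PND4, 4 libraries) or postnatal day 1 (PND1, 4 libraries). No genotype or agent other than age separates the groups, and the labels leave unsaid whether separate animals, litters or pools gave the libraries of an age, so p-values measure the spread between libraries, which may be technical. The genes were chosen by name: Dazl, Figla, Ddx4, Sycp3, Syce2, Sycp1, Stag3, Nobox, Sohlh1 and Taf4b, which are used by germ cells in nests and in meiotic prophase. Of these 10 genes, 7 had a row among the 11783 rows of the expression table. The expression of Sycp1, Stag3 and Taf4b, which had none, was not analysed here. Ddx4 was near 0 in most libraries.

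In the fetal mouse ovary germ cells grow in nests, enter meiosis and pair their chromosomes through the synaptonemal complex, a protein ladder between homologous chromosomes. Around birth the oocytes arrest late in meiotic prophase and take down that complex, while nests break up into primordial follicles, each with an oocyte inside a layer of pregranulosa cells. Oocyte transcription factors such as FIGLA, NOBOX and SOHLH1 are needed for the formation or early growth of these follicles, and growing oocytes then make the zona pellucida, the coat built from the products of Zp1, Zp2 and Zp3. These genes are known from germ cells, and the cells labelled here are somatic.

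Promoter sequences are shown for the 3 genes with the lowest PND4 values relative to PND1 and for Syce2, whose values did not move with theirs. Each runs from 250 bases before the transcription start to 50 bases after it, in RefSeq on GRCm38.p6. Figla lies at chr6:86016941-86017240 (plus strand), Dazl at chr17:50293571-50293870 (minus strand), Sycp3 at chr10:88459337-88459636 (plus strand) and Syce2, by the downstream start of its 2 listed, at chr8:84872008-84872307 (plus strand). Capitals mark CANNTG, the E-box read by basic helix-loop-helix factors such as FIGLA and SOHLH1, and GGCGGGA, a sequence of the E2F type.
Figla: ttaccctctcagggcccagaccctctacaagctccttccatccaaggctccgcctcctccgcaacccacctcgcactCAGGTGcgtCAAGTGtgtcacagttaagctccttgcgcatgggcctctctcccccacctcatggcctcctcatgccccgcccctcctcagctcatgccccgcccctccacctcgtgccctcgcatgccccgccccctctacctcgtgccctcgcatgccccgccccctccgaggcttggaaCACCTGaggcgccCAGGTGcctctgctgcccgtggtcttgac
Dazl: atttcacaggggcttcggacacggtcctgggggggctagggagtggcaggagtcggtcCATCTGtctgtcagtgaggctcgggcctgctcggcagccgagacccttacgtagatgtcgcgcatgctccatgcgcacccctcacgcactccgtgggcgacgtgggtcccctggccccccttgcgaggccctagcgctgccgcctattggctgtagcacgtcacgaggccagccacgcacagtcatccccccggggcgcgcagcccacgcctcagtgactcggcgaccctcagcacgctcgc
Sycp3: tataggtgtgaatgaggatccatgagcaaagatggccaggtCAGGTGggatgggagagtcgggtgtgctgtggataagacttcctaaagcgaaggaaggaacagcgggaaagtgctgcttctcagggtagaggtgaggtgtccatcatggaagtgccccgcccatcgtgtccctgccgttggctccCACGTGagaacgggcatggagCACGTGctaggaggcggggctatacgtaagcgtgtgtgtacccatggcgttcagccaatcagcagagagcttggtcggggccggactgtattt
Syce2: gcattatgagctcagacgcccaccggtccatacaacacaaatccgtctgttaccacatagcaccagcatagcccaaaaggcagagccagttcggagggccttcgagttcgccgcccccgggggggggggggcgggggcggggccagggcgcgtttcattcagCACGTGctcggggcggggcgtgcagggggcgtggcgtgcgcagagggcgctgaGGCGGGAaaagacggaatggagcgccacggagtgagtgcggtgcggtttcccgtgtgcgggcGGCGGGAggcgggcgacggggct

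Promoters of 9 of the 10 genes were examined here, leaving out Taf4b. All 9 held CANNTG on either strand, as did 72.3% of all 32851 promoters of this length. The form CACGTG, which is 1 case of CANNTG, was found in 6 of the 9 (Ddx4, Sohlh1, Stag3, Syce2, Sycp1 and Sycp3) and in 7.15% of all promoters. CACGTG contains CG, and the promoters of these 9 genes held from 13 (Nobox) to 38 (Ddx4) CG sites. The median over all promoters was 7. The part of CG content in the share with CACGTG was not tested. A gene was counted if any of its promoters held the sequence, and for Syce2 1 of its 2 did. GGCGGGA was found for Ddx4 and Syce2, against 11.3% of all promoters. TAATTG and TAATTA, sequences of the kind that NOBOX reads, were found in 0 of the 9, against 8.0% and 5.29% of all promoters. The matches describe these windows only.

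Sycp3 encodes a protein of the lateral element, the axis on which each chromosome is folded in meiosis. It lies on chromosome 10 from 88459569 to 88473236 on the plus strand (GENCODE M21, GRCm38). It stood at 3.39, 3.94, 4.46 and 2.01 FPKM in PND4 replicates 1 to 4, against 7.04, 5.05, 8.21 and 7.49 FPKM in PND1 replicates 1 to 4. FPKM is a level scaled by transcript length and sequencing depth. Every PND4 library was below every PND1 library, so the ages did not overlap. The means were 3.45 ± 1.06 FPKM at PND4 and 6.95 ± 1.35 FPKM at PND1 (SD, n = 4 each). The difference was -0.85 on the log2(FPKM + 1) scale (SE 0.30, 95% interval -1.51 to -0.20), with a limma unadjusted p of 0.0148 and an adjusted p of 0.750 over all genes tested, so it did not pass. Exons of Chpt1, a phospholipid synthesis gene on the opposite strand, share 660 exonic bases with Sycp3. Chpt1 stood at 1.09, 2.34, 4.26 and 3.23 FPKM in the PND4 libraries and at 0.692, 1.44, 2.48 and 2.30 FPKM in the PND1 libraries. Its log2 difference was 0.43, opposite in sign to that of Sycp3 (limma adjusted p = 0.873). No source used here states a strand setting for the counting, so reads over the shared bases could have been counted for either gene.

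Syce2 encodes a protein of the central element, which joins the paired axes. It had 4.76, 5.62, 5.78 and 7.95 FPKM in PND4 replicates 1 to 4, against 2.48, 7.13, 3.63 and 7.96 FPKM in PND1 replicates 1 to 4. The ages overlapped throughout, and the lowest and the highest library were both of PND1. The means were 6.03 ± 1.36 FPKM at PND4 and 5.30 ± 2.66 FPKM at PND1 (SD, n = 4 each). The log2 difference was 0.24 (95% interval -0.52 to 1.01, limma adjusted p = 0.913), and it turned to -0.0052 without PND1 replicate 1. Sycp3 and Syce2, whose products sit in the same complex, thus stood at different sides of 0 in these libraries. The difference between them was not tested. The expression of Sycp1, for the transverse filament that spans the complex, and of Stag3, for a cohesin subunit of meiotic chromosome axes, was not analysed here.

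**Figure D1:**
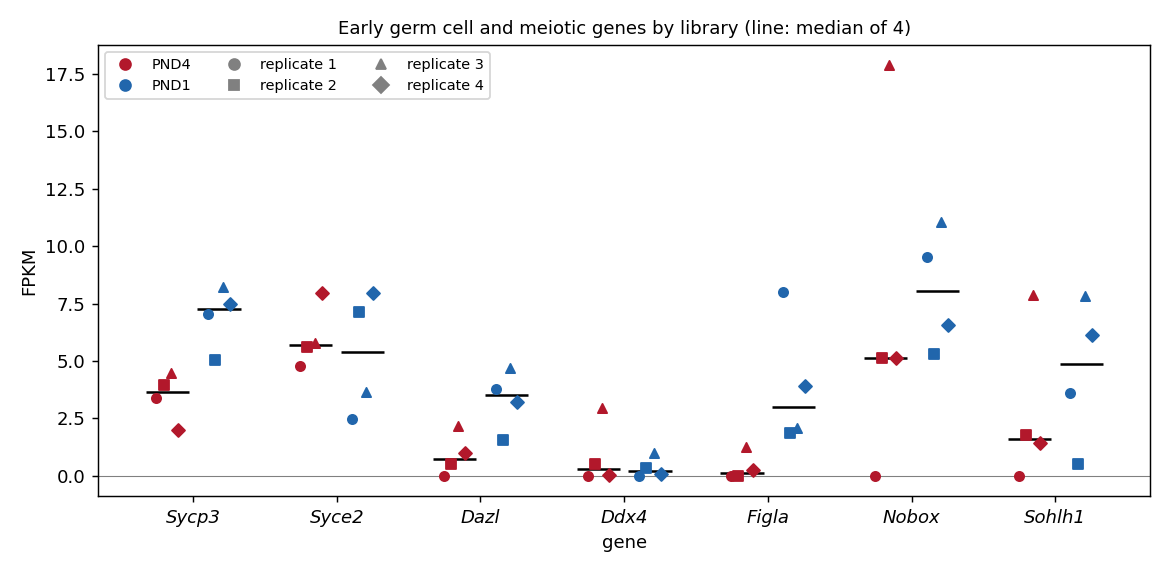
FPKM of the 7 genes with a row, by library, for PND4 (red) and PND1 (blue); symbols give the replicate and black lines the median of 4 libraries. Sycp3 and Figla did not overlap between the ages, and PND4 replicate 1 (red circle) is at 0 for Dazl, Ddx4, Figla, Nobox and Sohlh1.

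Dazl encodes an RNA-binding protein that controls translation in germ cells and lies on chromosome 17 from 50279395 to 50293636. It was listed at 0 in PND4 replicate 1 and at 0.495, 2.17 and 0.992 FPKM in PND4 replicates 2 to 4, against 3.79, 1.55, 4.71 and 3.22 FPKM in PND1 replicates 1 to 4. PND4 replicate 3 was above PND1 replicate 2, and the other PND4 libraries were below every PND1 library. The log2 difference was -1.24 (SE 0.47, 95% interval -2.27 to -0.21), with a limma unadjusted p of 0.0225 and an adjusted p of 0.805. Dazl reached 1 FPKM in 1 PND4 library and in all 4 PND1 libraries, so its PND1 values alone carried it past the filter on low values.

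Ddx4 encodes the germ cell RNA helicase also called VASA and lies on chromosome 13 from 112598333 to 112652475. It was listed at 0 in PND4 replicate 1 and at 0.507, 2.96 and 0.0382 FPKM in PND4 replicates 2 to 4. PND1 replicate 1 was also at 0, and PND1 replicates 2 to 4 had 0.354, 0.987 and 0.0686 FPKM. Only PND4 replicate 3 passed 1 FPKM, and the filter left Ddx4 untested. Fitted without the filter, its log2 difference was 0.28 (95% interval -0.98 to 1.53, limma adjusted p = 0.926). By mean FPKM Ddx4 stood at percentile 2.43 of all rows, lower than Dazl (14.2), Figla (14.7), Sohlh1 (26.1), Sycp3 (35.9), Syce2 (38.2) and Nobox (47.1).

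Figla encodes a basic helix-loop-helix factor that the mouse oocyte needs to form primordial follicles and to express its zona genes, and it lies on chromosome 6 from 86016171 to 86020996. It was listed at 0 in PND4 replicates 1 and 2 and at 1.25 and 0.263 FPKM in PND4 replicates 3 and 4, against 7.99, 1.87, 2.07 and 3.89 FPKM in PND1 replicates 1 to 4. The ages did not overlap. The log2 difference was -1.78 (SE 0.50, 95% interval -2.88 to -0.67), with a limma unadjusted p of 0.00458 and an adjusted p of 0.740, and it too was carried past the filter by its PND1 libraries. With 1 library left out it ran from -2.04 to -1.44.

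Nobox and Sohlh1 encode oocyte transcription factors of the homeobox and of the basic helix-loop-helix families. Nobox, on chromosome 6 from 43303674 to 43309554, was listed at 0 in PND4 replicate 1 and at 5.12, 17.9 and 5.13 FPKM in PND4 replicates 2 to 4, against 9.54, 5.30, 11.05 and 6.56 FPKM in PND1 replicates 1 to 4. Both the lowest and the highest library were of PND4. The log2 difference was -0.77 (95% interval -2.32 to 0.77, limma adjusted p = 0.859), and without PND4 replicate 1 it was 0.016. Without PND4 replicates 1 and 3 together, a setting chosen after seeing the data, it was -0.525. Sohlh1, on chromosome 2 from 25842995 to 25847248, was listed at 0 in PND4 replicate 1 and at 1.79, 7.85 and 1.44 FPKM in PND4 replicates 2 to 4, against 3.59, 0.50, 7.82 and 6.11 FPKM in PND1 replicates 1 to 4. Its ages overlapped, and PND4 replicate 3 was level with the highest PND1 library. The log2 difference was -0.71 (95% interval -2.26 to 0.84, limma adjusted p = 0.872), and -0.22 without PND4 replicate 1. Taf4b, for a subunit of the general transcription factor TFIID that is enriched in gonads, was not analysed here.

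**Figure D2:**
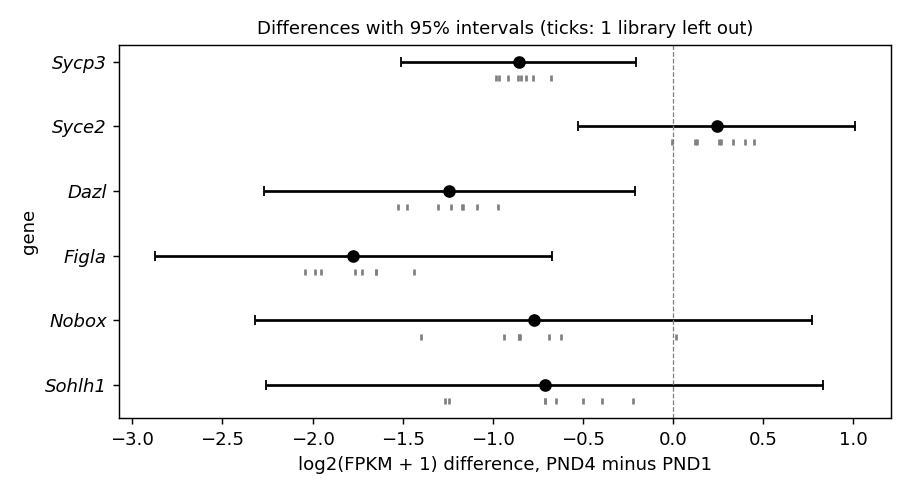
Difference of log2(FPKM + 1), PND4 minus PND1, for the 6 genes tested (points) with 95% intervals (bars); grey ticks under each point give the values with 1 library left out. The intervals of Figla, Dazl and Sycp3 lie below 0, while those of Nobox, Sohlh1 and Syce2 span 0, and the ticks of Nobox and Syce2 reach across it.

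Across the 6 genes tested, 0 passed limma at an adjusted p under 0.05, against 1 of 10756 genes tested (0.0093%). An unadjusted p under 0.05 with lower PND4 values was had by 3 of the 6, Figla, Sycp3 and Dazl, against 1.84% of all genes tested, and 0 of the 6 had one with higher PND4 values, against 4.06%. With median-of-ratios scaling the same 3 and 0 of the 6 stood beside 3.0% lower and 2.26% higher over all genes tested, so the balance over all genes turned with the scaling. The ages did not overlap, with PND4 lower, for Figla and Sycp3, against 1.08% of all genes tested, and 0 of the 6 stood apart with PND4 higher, against 3.16%. The median log2 difference of the 6 was -0.81, beside 0.078 over all genes tested, and 5 of the 6 lay below 0, beside 39.7% of all genes tested. The median was -0.54 without PND4 replicate 1, with 4 of the 6 below 0 and 2 lower at an unadjusted p under 0.05, and -1.33 without PND4 replicate 3, with 5 below 0 and 4 lower at that p. Without PND4 replicate 2, PND1 replicate 1 or PND1 replicate 3 there were also 2 lower at that p. These counts describe genes that were picked with earlier results known, and of the 6, Dazl and Figla passed the filter only through their PND1 values. In the authors' deposited table, whose fold is PND1 over PND4 and so runs the other way, Figla had a fold of 3.35 (q = 0.742), Dazl 2.64 (q = 0.742) and Sycp3 1.83 (q = 0.742). The same authors' deposited table gave Nobox a fold of 2.20 (q = 0.770), Sohlh1 2.11 (q = 0.768), Syce2 0.922 (q = 0.931) and Ddx4 0.911 (q = 0.951).

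Libraries differed within an age. The 7 genes summed to 8.15, 17.5, 42.4 and 17.8 FPKM in PND4 replicates 1 to 4, against 34.4, 21.8, 38.5 and 35.3 FPKM in PND1 replicates 1 to 4. PND4 held both the lowest and the highest sum. Of the 7 genes 5 were listed at 0 in PND4 replicate 1, 1 in PND4 replicate 2 and 1 in PND1 replicate 1, and 0 in each of the other 5 libraries. Of the genes tested 3.79% were listed at 0 in PND4 replicate 1. Rows at 0 made up 9.32% of the table in PND4 replicate 1 and 10.5% in PND1 replicate 1, where Ddx4 was the 1 member at 0. Read depth is unknown, and a listed 0 can be a failed estimate. Krt18, a keratin of granulosa and surface epithelial cells, stood between 379 and 531 FPKM at PND4 and between 378 and 552 FPKM at PND1, and Foxl2, the transcription factor of granulosa identity, between 13.3 and 26.2 FPKM at PND4 and between 10.5 and 19.3 FPKM at PND1. The germ cell genes were thus measured at far lower levels than the keratin. Against Foxl2 the gap was smaller. Nobox, at 17.9 FPKM in PND4 replicate 3 and 11.0 FPKM in PND1 replicate 3, lay within the Foxl2 range of the same age. In the other libraries Nobox lay below that range. In bulk RNA, fewer cells of a type and less RNA per cell cannot be told apart.

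Within each age, the summed zona genes of growing oocytes ranked the libraries in the same order as the sum of the 7 early genes. At PND4, replicates 2 and 4 lay close together in both sums. Across both ages together the order was not the same. The match within an age held for the sum of all 7 genes and not for its parts. Neither the sum of Dazl, Figla and Sycp3 nor that of Nobox and Sohlh1 kept the zona order within either age. The sum of Dazl, Figla and Sycp3 was lowest at PND4 in replicate 4 and highest at PND1 in replicate 1. Summed FPKM of Zp1, Zp2 and Zp3, a trio chosen after its values were seen, was 14.8, 25.4, 138 and 26.8 in PND4 replicates 1 to 4, against 4.66, 0.188, 22.1 and 13.0 in PND1 replicates 1 to 4. The 7 early genes amounted to 0.552, 0.688, 0.306 and 0.665 times that zona sum in PND4 replicates 1 to 4, against 7.38, 116, 1.74 and 2.71 times in PND1 replicates 1 to 4. The ratio did not overlap between the ages, and it is given as a description. In PND4 replicate 1, where Figla, Dazl, Nobox and Sohlh1 were listed at 0, Zp3 stood at 12.7 FPKM and Padi6, for an abundant oocyte protein, at 27.1 FPKM. Some other growing oocyte genes were low there, with Zp1 at 0.78, Zp2 at 1.33 and Gdf9, for an oocyte growth factor, at 1.07 FPKM. Each of these values was the lowest of the PND4 libraries for its gene. Over all libraries Zp3 had a log2 difference of 2.32 and Gdf9 of 1.27 (limma adjusted p = 0.740 and 0.805). Of the 15 tested genes in the growing oocyte list 0 passed the adjusted test, and 2 had an unadjusted p under 0.05 with higher PND4 values, beside 4.06% of all genes tested. The median log2 difference of the 15 was 0.57, beside 0.078 over all genes tested. Of the 15 differences 11 were positive and 4 negative. The negative ones include Dppa3 and Kit, which are also in the germ cell identity list given below. The most abundant genes of the growing oocyte list were Uchl1, for a ubiquitin hydrolase that is also made outside oocytes, and Padi6, with log2 differences of 0.16 and 2.18 (limma adjusted p = 0.889 and 0.740). The part of germ cell content in the differences of the early genes was not tested.

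**Figure D3:**
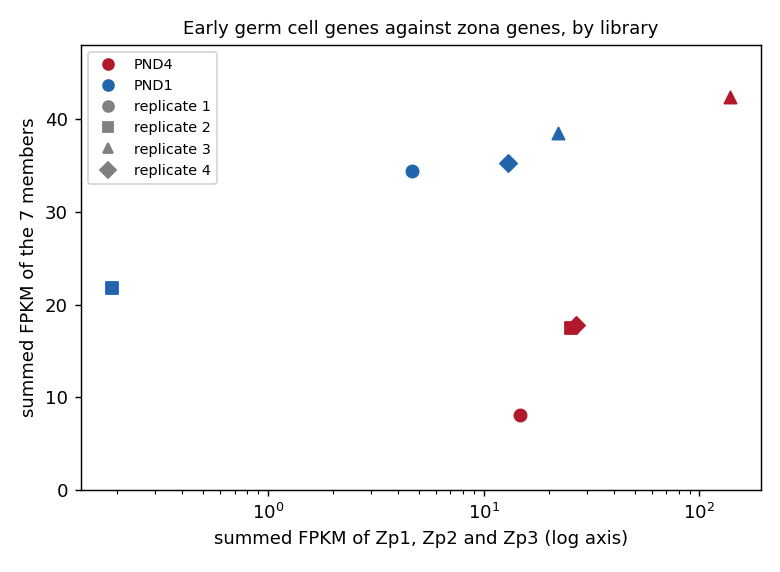
Summed FPKM of the 7 early genes (vertical axis) against summed FPKM of Zp1, Zp2 and Zp3 (horizontal axis, log scale), 1 point per library, for PND4 (red) and PND1 (blue). PND4 replicate 3 stands highest on both axes, at 42.4 and 138 FPKM, and the other PND4 libraries lie below all PND1 libraries on the vertical axis but between 14.8 and 26.8 FPKM on the horizontal axis.

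Other genes of the same pathways were taken from lists. Of 45 further synaptonemal complex, cohesin and recombination genes 11 had a row and 9 were tested, with 0 past the adjusted test, 5 positive and 4 negative differences, beside 39.7% negative over all genes tested, and a median log2 difference of 0.073, beside 0.078. An unadjusted p under 0.05 was had by 1 of the 9, with lower PND4 values, beside 1.84%. The most abundant was Trip13, for an ATPase that removes meiotic axis proteins and also acts in mitosis, with a log2 difference of 0.19 (limma adjusted p = 0.909). Syce1, for a partner of SYCE2 in the central element, was chosen after its values were seen. It was listed at 0 in PND4 replicates 1, 2 and 4 and at 0.687 FPKM in PND4 replicate 3, against 1.57, 1.64, 5.23 and 2.21 FPKM in PND1 replicates 1 to 4. The ages did not overlap for Syce1 (log2 difference -1.58, limma adjusted p = 0.740), and its PND1 values alone carried it past the filter. Smc1b and Rec8, for meiotic cohesin subunits, were untested, with up to 2.74 and 3.19 FPKM at PND4 and up to 2.58 and 2.98 FPKM at PND1.

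Of 48 further germ cell identity, RNA-binding and piRNA pathway genes 14 had a row and 12 were tested. None passed the adjusted test (limma, smallest adjusted p = 0.752), and 1 of the 12 had an unadjusted p under 0.05, with lower PND4 values, beside 1.84% of all genes tested. Of the 12 differences 10 were negative, beside 39.7% of all genes tested, and their median was -0.61, beside 0.078. The most abundant were Ifitm3, for a membrane protein that is not limited to germ cells, and Rbpms2, for an RNA-binding protein, with log2 differences of -0.35 and -0.35 (limma adjusted p = 0.852 and 0.805). Piwil2, for a piRNA-binding protein and chosen after its values were seen, stood at 0.572, 0.781, 0.383 and 0.332 FPKM in PND4 replicates 1 to 4, against 1.60, 1.45, 5.22 and 3.12 FPKM in PND1 replicates 1 to 4. The ages did not overlap (log2 difference -1.25, limma adjusted p = 0.752), again for a gene carried past the filter by PND1. Of 17 further oocyte transcription factor genes and partners 9 had a row and were tested, with 0 past the adjusted test (smallest adjusted p = 0.852) and 0 with an unadjusted p under 0.05. Most of these are also used by somatic cells, and Gata4 and Dynll1 were the most abundant, with log2 differences of -0.089 and 0.14 (limma adjusted p = 0.972 and 0.891). Lhx8, for an oocyte homeobox factor, was listed at 0 in PND4 replicates 1, 2 and 4 and at 3.84 FPKM in PND4 replicate 3, against 3.85, 0, 1.94 and 2.13 FPKM in PND1 replicates 1 to 4.

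**Figure D4:**
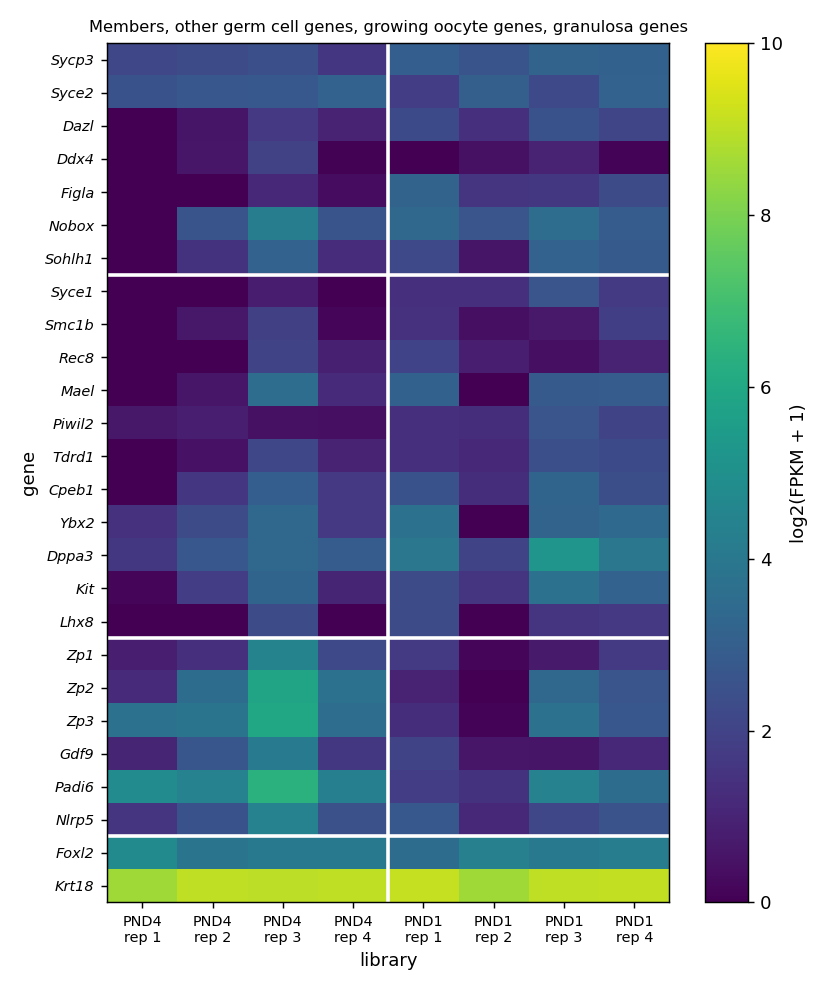
Log2(FPKM + 1) by library (columns, PND4 left of PND1) for the 7 members, other germ cell genes, growing oocyte genes and 2 granulosa genes (blocks from top to bottom, split by white lines, with the genes beside the members chosen after their values were seen). PND4 replicate 1 is dark for most germ cell genes. Of the growing oocyte genes shown, Zp1, Zp2, Gdf9 and Nlrp5 are also low there, while Zp3 and Padi6 are not. Krt18 is bright in every library.

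Markers of other cell types also differed between libraries. Erythroid genes, of which 3 of 10 had a row, summed to 0.269 to 11.4 FPKM at PND4 and to 17.1 to 48.9 FPKM at PND1, without overlap and with the same direction as Figla and Sycp3. Of 10 endothelial genes 1 had a row, and of 12 immune genes 6, with sums of 3.11 to 59.8 FPKM at PND4 and 10.4 to 29.8 FPKM at PND1. The highest immune sum was that of PND4 replicate 1, and Lyz2 made up most of it. Lyz2 stood at 55.8 FPKM there, against 0 to 11.3 FPKM in the other PND4 libraries. Surface epithelium genes, with rows for 10 of 11, summed to 228 to 497 FPKM at PND4 and 128 to 400 FPKM at PND1. Stroma genes, with rows for all 15, summed to 637 to 979 FPKM at PND4 and 606 to 955 FPKM at PND1, and granulosa genes, with rows for 23 of 25, to 1200 to 1580 FPKM at PND4 and 1120 to 1580 FPKM at PND1. Keratins made up most of the granulosa sum. At PND4 Krt18, Krt8 and Krt19 had means of 487, 355 and 126 FPKM, beside a mean sum of 1420 FPKM. At PND1 their means were 500, 390 and 120 FPKM, beside 1430 FPKM. Krt19 is in both the granulosa and the surface epithelium list. The most abundant genes of these lists were Hba-a2 and Hba-a1 (erythroid), Esam (endothelial), Lyz2 and Cd68 (immune), Krt19 and Upk1b (surface epithelium), Acta2 and Lox (stroma) and Krt18 and Krt8 (granulosa). Their part in the germ cell results was not tested.

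Likeness of pattern was measured as the Pearson correlation of log2(FPKM + 1) over the 8 libraries, which share their age groups, and it is a description without a test. The closest genes to Sycp3 were Marcksl1 (0.956), Slmap (0.949) and Cd55 (0.943). For Dazl they were Spred3 (0.976), Lamb2 (0.958) and Usp53 (0.958), and for Figla they were Trp53inp2 (0.953), Clu (0.930) and Igfbp4 (0.926). None of these 9 genes is in the germ cell lists used here. Among the members, Dazl had correlations of 0.854 with Figla, 0.790 with Sycp3 and 0.819 with Sohlh1, and Syce2 had -0.464 with Sycp3.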

How the data were processed

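The submitters' processing notes name Trim Galore, HISAT2 and the GRCm38 build, without versions, for the 8 granulosa cell libraries. The authors deposited FPKM for 11783 genes, per the file headers, and a second table with a ratio (fold of PND1 over PND4), the log2 of that ratio, and p-values and q-values. No source used here names its test, or the program, annotation, strand setting and filter behind the FPKM. A column of row sums was not used. Read depth is unknown.

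The plan named a count test for counts and limma for FPKM. As the values are FPKM, limma 3.58.1 (R 4.3.3) was used on log2(FPKM + 1), a scale that understates the change of low genes. It was run without a block and with the trend option for the variance. The filter kept the 10756 genes that reached 1 FPKM in 4 or more libraries, and p-values were adjusted over all of them by Benjamini-Hochberg at 0.05. The fit was tested on simulated data. Members and lists were chosen with earlier results of these data known. All members were named, with the 2 most abundant genes of each list, Zp3, Gdf9, Foxl2 and Krt18, and the 3 genes most alike, except 1 gene that is not reported here. Positions came from GENCODE M21 and promoters from RefSeq GRCm38.p6. Alternatives were scaling, filter, pseudocount, robust variance, the replicate block and each library left out, and, chosen after seeing the data, PND4 libraries 1 and 3 left out together. Figures were drawn with matplotlib 3.10.9.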

Additional observations from a re-analysis of the deposited data

Results flagged for a closer look

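Of 30 groups of 4 libraries examined, 6 had 1 library whose gap to the next exceeded Dixon's 95% critical value. The gap was taken as a share of the group's range. Chance passes that value in about 1 in 20 independent, normally distributed groups. These groups share libraries and in part genes, so 6 of 30 cannot be set against that rate. In 5 of the 6 flagged groups the library was PND4 replicate 3. Ddx4 stood at 2.96 FPKM there, against 0 to 0.507 FPKM in the other PND4 libraries. Zp3 stood at 61.3 FPKM, against 10.9 to 13.4 FPKM, Zp1 at 21.2 FPKM, against 0.780 to 3.56 FPKM, and Padi6 at 83.3 FPKM, against 19.14 to 27.1 FPKM. The summed FPKM of Zp1, Zp2 and Zp3 was 138, beside 14.8 to 26.8 in PND4 replicates 1, 2 and 4. The ratio of member FPKM to zona FPKM was 116 in PND1 replicate 2, against 1.74 to 7.38 in the other PND1 libraries, and its zona sum was 0.188 FPKM.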

How the results depend on the processing

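Under all 17 alternatives limma called 1 gene over all genes and 0 of the members. The differences of Dazl, Figla, Sycp3 and Sohlh1 kept their sign under all 17, that of Nobox turned to 0.016 without PND4 replicate 1 (-1.40 to 0.016 with any 1 library left out) and that of Syce2 to -0.0052 without PND1 replicate 1 (-0.0052 to 0.45). Figla ran from -3.70 (pseudocount 0.1) to -0.69 (pseudocount 5) and Sycp3 from -1.02 to -0.50 under the same settings, since the values are low, and the median of the 6 members tested was -1.48 and -0.40 under them. The unadjusted p was under 0.05 in 17 of 17 alternatives for Figla and for Sycp3 and in 13 of 17 for Dazl, and adjusted p ran from 0.661 to 0.895 over these 3 genes. The alternatives reuse the same libraries, so these counts are not separate tests. The genes were picked with earlier results known, and Dazl and Figla passed the filter only through their PND1 values. Values at 0 among the members numbered 7 of 56, and 2 (without PND4 replicate 1) to 7 with 1 library left out. The mean sum of the members differed by -11.0 FPKM, PND4 minus PND1, and by -18.0 FPKM (without PND4 replicate 3) to -6.61 FPKM (without PND4 replicate 1) with 1 library left out. The replicate number is not said to mark a shared litter or day, and same-numbered libraries had correlations of deviations of 0.0457, -0.00882, 0.032 and 0.124. With the replicate block limma called 1 gene, 0 of the members, and Figla had an adjusted p of 0.746. With median-of-ratios scaling 243 genes were higher and 323 lower at an unadjusted p under 0.05, against 437 and 198 without it. Depth is unknown, and the median 95% interval of a gene reached 0.649 to either side on the log2 scale.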

Other observations

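Some oocyte genes that were not among the members are given as values. Elavl2, for an RNA-binding protein of oocytes and neurons, stood at 3.24 FPKM in PND4 replicate 3 and was listed at 0 in the other 7 libraries. H1foo, the oocyte linker histone gene, stood at 0.580 and 5.31 FPKM in PND4 replicates 2 and 3, against 0.490 FPKM in PND1 replicate 2, and was listed at 0 in the other 5 libraries. Npm2, for an oocyte histone chaperone, stood at 0.260, 1.71 and 6.09 FPKM in PND4 replicates 1 to 3 and at 0 in PND4 replicate 4, against 1.09 and 0.200 FPKM in PND1 replicates 3 and 4 and 0 in PND1 replicates 1 and 2. The filter on low values left all 3 untested. Dppa3, a maternal-effect gene also used in early germ cells, stood at 2.07, 5.64, 9.34 and 6.60 FPKM in PND4 replicates 1 to 4, against 14.6, 3.18, 36.0 and 14.5 FPKM in PND1 replicates 1 to 4. Kit, for the receptor that oocytes carry, stood at 0.137, 2.49, 8.30 and 1.04 FPKM in PND4 replicates 1 to 4, against 3.84, 1.91, 12.4 and 7.87 FPKM in PND1 replicates 1 to 4. Neither passed the test (limma adjusted p = 0.805 for both), and their ages overlapped.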
